A study of Mus musculus with 21 samples.

Results

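The vascular endothelium, the cell layer that lines blood vessels, was followed through 10 of its genes in RNA sequencing of mice lacking a long intergenic noncoding RNA (lincRNA). The genes, chosen by name with earlier results of these data known, were Pecam1, Cdh5, Cldn5, Esam, Kdr, Flt1, Tek, Tie1, Eng and Sox17. Each of the 10 had 1 row among the 42760 genes of the Peril brain table, the 42760 genes of the Fendrr lung table and the 40770 genes of the linc-Brn1b table. The study deleted lincRNA loci in mice and compared tissues of homozygous knockouts with those of wild-type littermates, to find genes whose expression differs without the lincRNA. In each strain the locus had been replaced by a cassette carrying the lacZ reporter and a neomycin resistance gene, in 129S6/SvEv and C57BL/6N hybrid embryonic stem cells, followed by a backcross to C57BL/6J. The deletion was present in all cells and not only in endothelium.

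The 21 libraries fell into 10 groups. The brain of the Peril strain, which the sample labels call linc-Sox2, was taken whole at embryonic day E18.5, with 2 wild-type and 2 knockout libraries. The lung of the Fendrr strain, labelled linc-Foxf1a, was taken at E14.5, also with 2 libraries per genotype. From the linc-Brn1b strain came the telencephalon at 2 embryonic ages, E13.5 and E15.5, as well as the P7 brain (postnatal day 7), with 2 libraries per genotype and age, except that 3 knockout libraries are labelled at E15.5. The deposited tables hold 1 value per group, in FPKM (fragments scaled by transcript length and sequencing depth), made by the authors from libraries of the group, and how many of the 3 entered the E15.5 knockout value is not shown. No value per library could therefore be given, so that no standard deviation or test stands behind any difference below, and whether a difference exceeds the spread between replicates is unknown. The read depth behind the values is likewise unknown. The 3 tables were normalized separately, so that levels in lung and in the brains of different strains are set side by side only as a description.

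The targeted loci and Y-linked genes were read as a check of the labels. At the Fendrr locus, the row linc-Cox4nb-4 was at 38.4 FPKM in wild-type lung and at 0.0450 FPKM in the knockout. linc-Brn1b had 1.60, 2.50 and 0.799 FPKM in the wild-type groups of E13.5, E15.5 and P7, and was listed at 0 in each knockout group. At the Peril locus, the row linc-Atp11b-4, which extends beyond the deletion, read 0.0109 FPKM in wild-type brain and 4.65 FPKM under the knockout label. This row goes against the label, which could not be checked here from the deposited values. Directions for the Peril strain follow the labels as deposited, and with the labels exchanged each would turn, all 10 endothelial genes then being higher without Peril. The 4 Y-linked genes measured summed to 33.6 and 49.2 FPKM in wild-type Fendrr lung and linc-Brn1b E13.5 telencephalon and to 0 and 0.0133 FPKM in their knockouts. They summed to 26.4, 21.0 and 23.2 FPKM in the knockout-labelled groups of Peril, linc-Brn1b E15.5 and linc-Brn1b P7, with 0.0256, 0.00662 and 0.0357 FPKM in wild type. Sex and genotype thus cannot be told apart in any of the 5 comparisons.

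Endothelial cells hold to each other through adherens and tight junctions. VE-cadherin, the product of Cdh5, builds the adherens junction, claudin-5, the product of Cldn5, seals the tight junction, and PECAM1 and ESAM are adhesion proteins of the cell border. PECAM1 is also carried by platelets and leukocytes. Vessel growth is driven by vascular endothelial growth factor (VEGF), for which Kdr encodes the main signalling receptor and Flt1 a receptor that binds the ligand tightly and can act as a decoy. Tek, also known as Tie2, is the receptor for angiopoietins, and Tie1 is its partner. Eng encodes endoglin, a co-receptor for ligands of the transforming growth factor beta (TGF-beta) family, and Sox17 encodes a transcription factor of arterial endothelium. Brain vessels form a barrier rich in claudin-5, whereas the lung is among the most densely vascularised organs.

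All 10 genes are protein coding, and in mm9, the build of the files, they lie on 8 chromosomes. The deposited span of Sox17 is chr1:4481009-4486494 on the minus strand, that of Eng chr2:32502115-32549695 on the plus strand, that of Tek chr4:94405991-94541630 on the plus strand and that of Tie1 chr4:118143796-118162454 on the minus strand. Kdr spans chr5:76329299-76374453 and Flt1 chr5:148373772-148537564, both on the minus strand. Cdh5 spans chr8:106625525-106668495 on the plus strand, Esam chr9:37335674-37345904 on the plus strand, Pecam1 chr11:106515532-106576595 on the minus strand and Cldn5 chr16:18776940-18778355 on the plus strand. Cldn5 has a single annotated exon, while Kdr has up to 31. None of the genes is beside a deletion. Cdh5 is 16.9 Mb from the Fendrr deletion and Sox17 is 38.3 Mb from the linc-Brn1b deletion, and the other 8 are on chromosomes that hold no deletion of the 3 strains.

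Promoter sequences from RefSeq on build GRCm38.p6, 250 bases before to 50 bases after the start of the gene, were matched by symbol for 6 of the 10 genes, namely Cldn5, Kdr, Flt1, Tek, Tie1 and Eng. The 4 below are shown because the genes behaved differently in the data. Cldn5 had the largest single difference between genotypes (-0.93 at E13.5) and between ages (1.24 in knockout telencephalon), though not the largest in every comparison. Tek and Tie1 encode a receptor pair and differed by nearly the same amount in the Fendrr lung, and Eng had nearly equal levels in both genotypes there. The 4 windows lie at chr16:18776597-18776896 on the plus strand (Cldn5), chr4:94739039-94739338 on the plus strand (Tek), chr4:118489800-118490099 on the minus strand (Tie1) and chr2:32646345-32646644 on the plus strand (Eng). Each is written 5′ to 3′ on the strand of its gene, with GGAA and its reverse complement TTCC, the core letters bound by ETS transcription factors, in capitals.
Cldn5: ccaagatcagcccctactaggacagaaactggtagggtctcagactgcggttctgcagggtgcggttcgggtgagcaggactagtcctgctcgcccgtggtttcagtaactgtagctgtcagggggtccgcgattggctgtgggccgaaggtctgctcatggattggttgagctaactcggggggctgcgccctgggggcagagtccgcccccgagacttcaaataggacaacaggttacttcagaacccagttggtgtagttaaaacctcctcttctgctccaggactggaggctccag
Tek: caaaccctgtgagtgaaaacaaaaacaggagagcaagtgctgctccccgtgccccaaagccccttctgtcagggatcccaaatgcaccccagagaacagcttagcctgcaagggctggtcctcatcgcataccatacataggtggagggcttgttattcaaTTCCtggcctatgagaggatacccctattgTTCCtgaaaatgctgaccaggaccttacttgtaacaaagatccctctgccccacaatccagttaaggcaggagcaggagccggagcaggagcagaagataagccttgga
Tie1: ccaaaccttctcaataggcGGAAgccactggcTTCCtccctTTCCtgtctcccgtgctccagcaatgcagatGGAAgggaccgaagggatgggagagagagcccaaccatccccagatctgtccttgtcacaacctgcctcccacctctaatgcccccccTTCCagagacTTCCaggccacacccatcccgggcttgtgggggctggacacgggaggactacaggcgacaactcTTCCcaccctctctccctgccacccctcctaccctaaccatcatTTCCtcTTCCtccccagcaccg
Eng: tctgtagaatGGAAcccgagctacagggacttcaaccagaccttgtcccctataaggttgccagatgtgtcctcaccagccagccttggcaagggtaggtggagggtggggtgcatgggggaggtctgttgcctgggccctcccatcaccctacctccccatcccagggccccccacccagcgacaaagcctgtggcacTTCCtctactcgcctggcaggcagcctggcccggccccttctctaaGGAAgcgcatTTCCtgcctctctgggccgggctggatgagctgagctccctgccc
The letters GGAA on either strand were in 95.9% of the 27025 mouse promoters of this length, with 3.52 matches per promoter on average, and in 5 of the 6 matched promoters. Tie1 had 9 matches, Kdr 5, Flt1 and Eng 4 each, Tek 2 and Cldn5 0. The longer form GGAAGT, which contains GGAA, was in 24.1% of all promoters and in 4 of the 6 (Kdr, Flt1, Tie1 and Eng). ACAAAG, a core bound by SOX factors, was in 18.7% of all promoters and in those of Tek and Eng, and TGTTTAC, bound by forkhead factors, was in 3.55% of all promoters and in 0 of the 6. All were searched on both strands, and these matches describe the letters of the window and not binding. GC content was 52.0% in the Tek window and 70.7% in the Flt1 window, against a median of 52.7% over all promoters, and the Tek window held 3 CpG dinucleotides against 29 in that of Flt1.

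Wild-type lung had the highest level of every one of the 10 genes among the wild-type groups, and its mixture of the 10 differed from that of brain. Lung was taken at E14.5 and the brain groups at other ages and from other strains, so that tissue, age and strain cannot be told apart here. The genes summed to 418 FPKM in wild-type Fendrr lung, 110.3 FPKM in Peril brain labelled wild type and 81.9, 61.7 and 84.4 FPKM in wild-type linc-Brn1b E13.5, E15.5 and P7 brain. All 10 members were above each of the 4 wild-type brain groups in the lung, as were 40.0% of the 15861 genes with at least 1 FPKM in any wild-type group. In a bulk sample, fewer cells of a type and less RNA per cell cannot be told apart. The ratio of lung to the highest brain group was largest for Pecam1. Pecam1 was at 79.5 FPKM in wild-type lung and at 7.39 to 9.66 FPKM in the 4 wild-type brain groups, 8.23 times the highest brain value. Cdh5 was at 85.2 FPKM in lung and at 5.56 to 12.7 FPKM in brain, 6.70 times the highest. Esam was at 49.8 FPKM against 6.32 to 10.6 FPKM, 4.71 times the highest.

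Cldn5 and Flt1 stood at the other end. Cldn5 was at 49.4 FPKM in wild-type lung, 41.0 FPKM in Peril brain and 16.5, 18.03 and 32.8 FPKM in linc-Brn1b brain at E13.5, E15.5 and P7, so that lung exceeded the highest brain group 1.21-fold. In knockout lung it was at 35.6 FPKM, below both Peril groups and level with the P7 knockout at 35.6 FPKM. Flt1 was at 8.67 FPKM in lung and at 4.09 to 7.11 FPKM in brain, 1.22 times the highest. Kdr, the other VEGF receptor, was at 34.8 FPKM against 7.45 to 12.8 FPKM, 2.71 times the highest, and the ratio of Flt1 to Kdr was accordingly lower in lung. The TIE receptors differed more, with Tie1 at 46.3 FPKM in lung against 3.99 to 6.65 FPKM and Tek at 24.0 FPKM against 2.10 to 4.38 FPKM, 6.96 and 5.49 times the highest brain value. Eng was at 31.8 FPKM against 4.51 to 9.08 FPKM, a ratio of 3.51. Sox17 was the lowest member in each brain group, at 0.814 to 1.59 FPKM in wild type, and was at 8.97 FPKM in wild-type lung, 5.64 times the highest brain value.

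**Figure D1:**
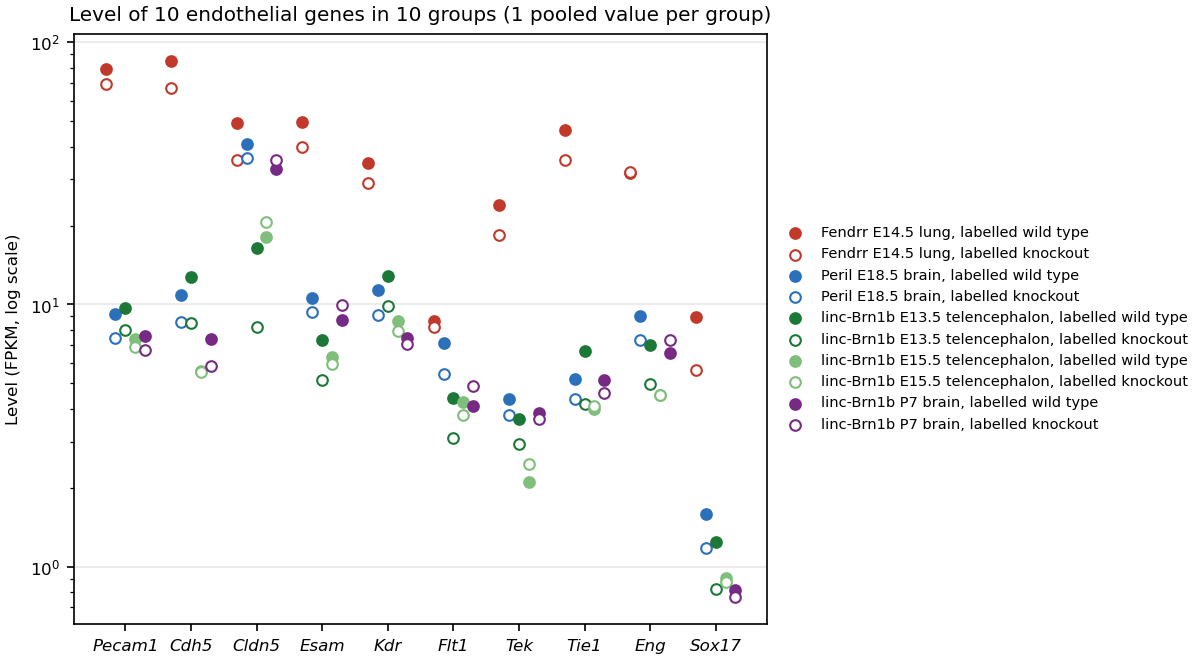
Level of each of the 10 genes (FPKM, logarithmic axis) in the 10 groups. Each point is the authors' single value for a group, filled for labelled wild type and open for labelled knockout, with no error available. Lung values lie well above all brain values for Pecam1, Cdh5, Esam, Kdr, Tek, Tie1, Eng and Sox17, whereas Flt1 and Cldn5 of the lung come close to the highest brain values.

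Because the share of each gene in the sum of the 10 does not depend on how a table was scaled, shares can be set side by side across tables. Cldn5 made up 11.8% and 10.5% of the sum in wild-type and knockout lung and 14.7% to 41.2% in the 8 brain groups. It was the highest of the 10 genes in 7 of these 8, the exception being the linc-Brn1b knockout at E13.5, where Kdr was highest. Cdh5 (19.7% to 20.4%) and Pecam1 (19.0% to 20.4%) led in lung and took 6.74% to 15.53% and 7.75% to 14.4% in brain. Tie1 made up 10.5% to 11.1% in lung against 4.71% to 8.11% in brain. Flt1 made up 2.07% to 2.42% in lung against 4.85% to 6.91% in brain. Esam made up 11.7% to 11.9% in lung against 8.91% to 11.6% in brain, Tek 5.40% to 5.74% against 3.40% to 5.28%, and Sox17 1.66% to 2.14% against 0.884% to 1.52%. The lung and brain ranges overlapped for Kdr and Eng, at 8.30% to 8.50% against 8.16% to 17.7% for Kdr and 7.61% to 9.36% against 7.20% to 8.93% for Eng. With Cldn5 left out of the sum, Pecam1 and Cdh5 together held 44.6% and 44.8% in wild-type and knockout lung and 24.6% to 34.8% in the brain groups. The lung and brain ranges of Esam, Tek and Sox17, however, then overlapped, so their separation above depends on Cldn5. Relative to Cdh5, Tek was at 0.282 and 0.274 in wild-type and knockout lung and at 0.288 to 0.631 in brain. Esam was at 0.584 and 0.593 times Cdh5 in lung and at 0.574 to 1.72 times in brain.

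**Figure D2:**
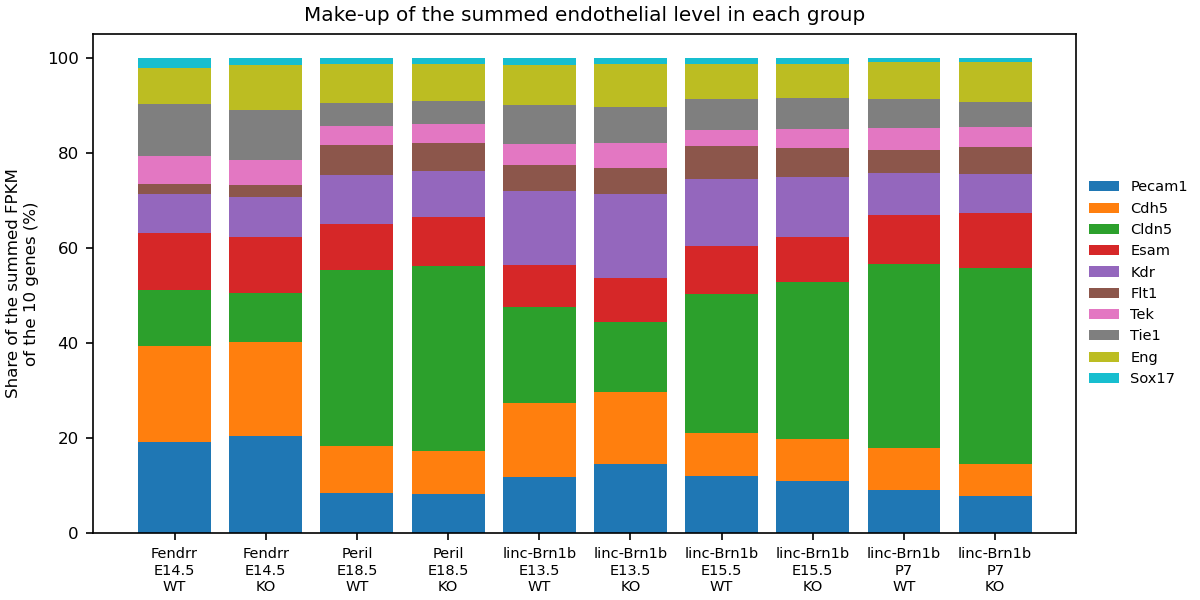
Share of each gene in the summed FPKM of the 10 genes (percent, vertical axis) in each group, with wild type (WT) and labelled knockout (KO) side by side. The green Cldn5 segment covers 11.8% of wild-type lung, 20.1% of wild-type E13.5 telencephalon and 38.9% of wild-type P7 brain. The Pecam1 and Cdh5 segments are widest in lung.

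In the Fendrr knockout lung, 9 of the 10 genes were lower than in wild type, and their sum was 340.9 FPKM, 81.5% of the wild-type 418 FPKM. Differences are given as log2(FPKM + 1) in knockout minus wild type, which understates the change of low genes, and genes are counted as past the threshold where this difference is at least 0.32, that is, where FPKM + 1 is higher by at least 25% in one group. A low gene can therefore differ by more than 25% in FPKM and not be counted. In this comparison 5 genes were lower by at least 0.32 and 0 were higher. Of the 14265 genes with at least 1 FPKM in either group, 3.89% were lower and 4.12% were higher by this measure. The median difference of the 10 was -0.33, against 0.00 over all genes, of which 48.8% were lower.

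Among junction and adhesion genes, Cldn5 and Cdh5 passed the threshold in lung. Cldn5 went from 49.4 FPKM in the wild-type to 35.6 FPKM in the mutant lung, a difference of -0.46. Cdh5 was at 85.2 and 67.2 FPKM, a difference of -0.34, which leaves the knockout at 78.8% of wild type. Esam was at 49.8 and 39.8 FPKM, or -0.31, just short of the threshold. Pecam1 was at 79.5 and 69.4 FPKM, or -0.19, so that Pecam1 and not Cdh5 was the highest of the 10 in knockout lung.

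Among the receptors in lung, the TIE pair differed most. Tek, at 24.0 and 18.4 FPKM in wild-type and knockout lung, and Tie1, at 46.3 and 35.7 FPKM, both differed by -0.37 and stood at 76.7% and 77.0% of wild type. The VEGF receptors differed less, with Kdr at 34.8 and 29.0 FPKM (-0.25) and Flt1 at 8.67 and 8.24 FPKM (-0.07). Endoglin did not follow the others: Eng was at 31.8 and 31.9 FPKM in wild-type and knockout lung, a difference of 0.00 that becomes -0.02 when values are rescaled to TPM (the FPKM of each group scaled to the same total). Sox17 had the largest difference, from 8.97 to 5.65 FPKM, or -0.59, which is 62.9% of wild type. From the lowest to the highest, the 10 differences spanned 0.59 in lung.

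In E18.5 brain of the Peril strain, all 10 genes were lower in the libraries labelled knockout, which stood at 74.2% (Sox17) to 88.6% (Esam) of the FPKM labelled wild type. The sum was 92.7 FPKM against 110.3 FPKM in wild type, or 84.1%. The median difference was -0.26 and the 10 lay between -0.33 and -0.16, a span of 0.17, while the median over 14729 genes was 0.00 and 49.2% of them were lower. One member, Flt1, was lower by at least 0.32 and 0 were higher, beside 3.71% of all genes lower and 5.14% higher. Cdh5, at -0.31, was just short of 0.32, and with a pseudocount of 0.1 FPKM the count was 3.

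Flt1 was at 7.11 FPKM in Peril brain labelled wild type and at 5.45 FPKM in the knockout-labelled group (-0.33), and Kdr at 11.3 and 9.09 FPKM (-0.29). Cdh5 was at 10.8 and 8.55 FPKM (-0.31) and Pecam1 at 9.21 and 7.46 FPKM (-0.27), which are 79.0% and 81.0% of wild type. Eng, level in the Fendrr lung, was at 9.08 and 7.33 FPKM (-0.28) here. Sox17 was at 1.59 and 1.18 FPKM (-0.25). The smallest differences were those of the tight junction and adhesion genes Cldn5, at 41.0 and 36.1 FPKM (-0.18), and Esam, at 10.6 and 9.38 FPKM (-0.16), and of the TIE receptors Tek, at 4.38 and 3.78 FPKM (-0.17), and Tie1, at 5.20 and 4.37 FPKM (-0.21). Cldn5, Tek and Tie1, among the 5 most reduced genes in lung, were thus among the 4 least reduced in Peril brain on this scale. Flt1, with the second smallest difference in lung, had the largest in Peril brain with a pseudocount of 1 FPKM, whereas with 0.1 FPKM Sox17 did, at -0.40 against -0.38 for Flt1. No test of the difference between strains could be made.

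**Figure D3:**
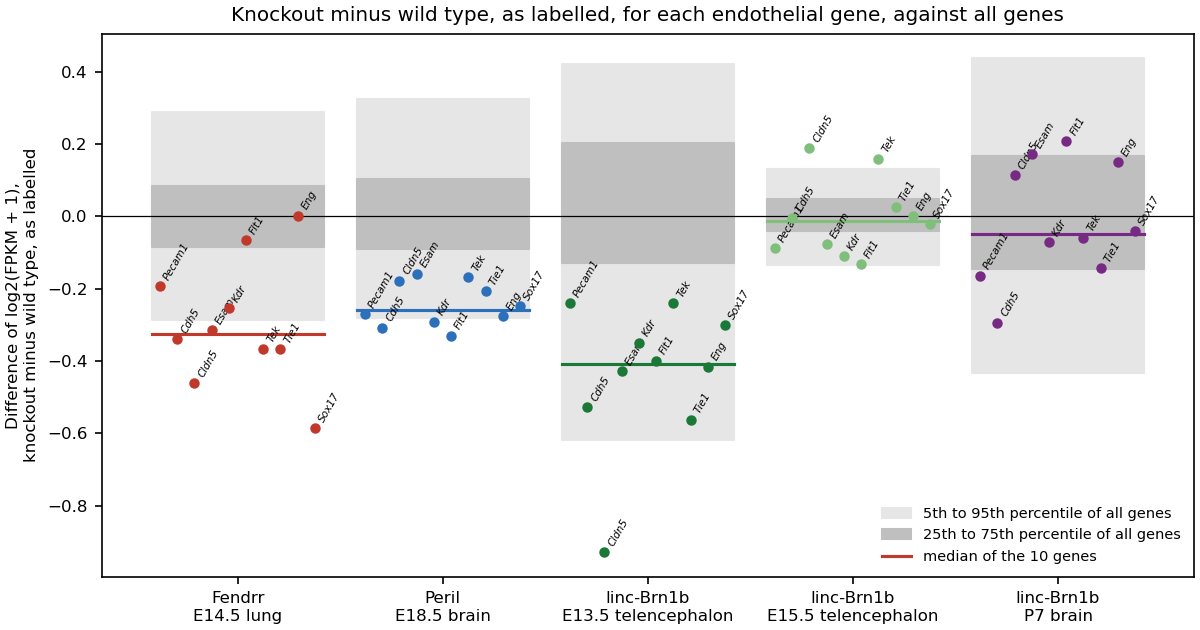
Difference of log2(FPKM + 1) between labelled knockout and wild type for each of the 10 genes (points) in the 5 comparisons, with the median of the 10 as a line. Dark bands span the 25th to 75th percentile and light bands the 5th to 95th percentile of all genes with at least 1 FPKM in either group. In lung, Peril brain and E13.5 telencephalon the points lie below 0 apart from Eng in lung, while at E15.5 and P7 they lie on both sides.

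The linc-Brn1b strain gave lower values of all 10 genes at the youngest age and values on both sides of wild type later. At E13.5 all 10 genes were lower in knockout telencephalon, their sum was 55.8 FPKM against 81.9 FPKM, or 68.1%, and the median difference was -0.41. At E13.5, 7 were lower by at least 0.32 and 0 were higher. Genes in general also differed more at this age, with 12.4% of 13822 genes lower and 10.5% higher by at least 0.32, and an all-gene median of 0.06. Over all genes, FPKM summed to 434191 in the wild-type and 381511 in the knockout group at E13.5. After rescaling to TPM the all-gene median moved to 0.24, 36.4% of genes were higher and 8.30% lower, and all 10 members were still lower, with a median of -0.29 and 3 lower by at least 0.32.

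Cldn5 had the largest difference of any member in any of the 5 strain and age comparisons. It was at 16.5 and 8.19 FPKM in wild-type and knockout E13.5 telencephalon, a difference of -0.93, or 49.7% of wild type. Tie1 was at 6.65 and 4.18 FPKM (-0.56) and Cdh5 at 12.7 and 8.52 FPKM (-0.53). Esam was at 7.30 and 5.16 FPKM (-0.43), Eng at 6.98 and 4.98 FPKM (-0.42) and Flt1 at 4.39 and 3.09 FPKM (-0.40). Kdr was at 12.8 and 9.85 FPKM (-0.35), with the knockout value the highest of the 10 genes in that group. Sox17 was at 1.24 and 0.819 FPKM (-0.30), Tek at 3.66 and 2.95 FPKM (-0.24) and Pecam1 at 9.66 and 8.02 FPKM (-0.24). Pecam1 was therefore the gene with the smallest relative difference, at 83.1% of wild type.

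At E15.5 the genotypes were nearly level. The 10 genes summed to 61.7 and 62.8 FPKM in wild-type and knockout telencephalon, 6 were lower and 4 higher, and the median difference was -0.01. None of the 10 passed 0.32 in either direction, and 0.827% of 13657 genes were lower and 0.666% higher by that measure. The spread of all genes was also the narrowest here, with the 5th to 95th percentile between -0.13 and 0.13. Cldn5, at 18.03 and 20.7 FPKM (0.19), and Tek, at 2.10 and 2.46 FPKM (0.16), lay above this range, and the other 8 lay inside it. Flt1 was at 4.26 and 3.80 FPKM (-0.13), Kdr at 8.66 and 7.95 FPKM and Pecam1 at 7.39 and 6.89 FPKM. Cdh5 was at 5.56 and 5.55 FPKM and Eng at 4.51 and 4.52 FPKM.

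In P7 whole brain the 10 genes summed to 84.4 and 86.3 FPKM in the wild-type and knockout groups, and the members again pointed both ways. The lower genes were 6 and the higher 4, with a median of -0.05, and none passed 0.32, against 9.05% of 14521 genes lower and 10.2% higher. With TPM these shares were 9.01% and 15.55%, and still none of the 10 passed. Cdh5 was at 7.36 and 5.82 FPKM (-0.29), Pecam1 at 7.61 and 6.69 FPKM (-0.16) and Tie1 at 5.16 and 4.58 FPKM (-0.14). On the higher side were Flt1 at 4.09 and 4.89 FPKM (0.21), Esam at 8.75 and 9.99 FPKM (0.17), Eng at 6.50 and 7.33 FPKM (0.15) and Cldn5 at 32.8 and 35.6 FPKM (0.11). The adherens junction gene Cdh5 and the tight junction gene Cldn5 thus differed in opposite directions, and the ratio of Cldn5 to Cdh5 was 4.46 in wild type and 6.11 in knockout. At E13.5 that ratio was 1.30 in wild type and 0.960 in knockout, and in lung it was 0.580 and 0.530.

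Over the 5 comparisons, with the Peril labels as deposited, Pecam1, Cdh5, Kdr and Sox17 were lower in the knockout each time. In a single comparison 41.0% to 49.2% of all genes were lower, and the share lower in all 5 was not counted. Cdh5 was within 0.01 of wild type at E15.5, and Sox17 was below 1 FPKM in both groups at E15.5 and P7. Pecam1 reached the threshold in none of the 5, its differences lying between -0.27 and -0.09. Cdh5, Cldn5, Flt1 and Tie1 each reached it in 2 comparisons. Cldn5 was lower in 3 and higher in 2, between -0.93 and 0.19, and Eng was lower in 2, within 0.01 of wild type in Fendrr lung and at E15.5, and higher at P7. The 3 linc-Brn1b comparisons come from 1 table and the animals of each age differ, and whether the difference at E13.5 exceeds that at E15.5 or P7 could not be tested.

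**Figure D4:**
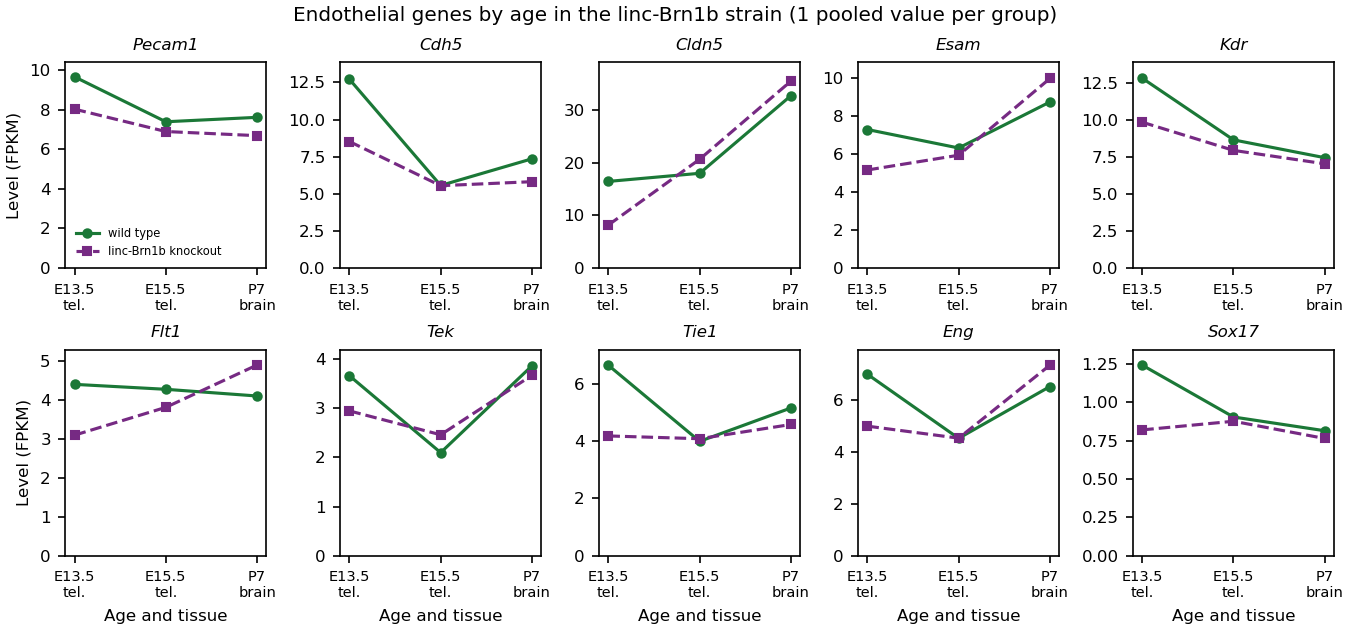
Level of each gene (FPKM, axes from 0 and separate for each gene) in the linc-Brn1b strain at E13.5 and E15.5 in telencephalon and at P7 in whole brain, with wild type as circles on solid lines and knockout as squares on dashed lines. Each point is 1 pooled value per group. The lines lie apart at E13.5 and come together at E15.5, and Cldn5 is higher at each later age in both genotypes.

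With age, wild-type telencephalon had lower levels of most of the 10 genes at E15.5 than at E13.5, and Cldn5 was the exception. In all, 9 were lower at E15.5, 6 of them by at least 0.32, and 0 were higher by as much, beside 18.6% of 13973 genes lower and 20.4% higher. The median was -0.43. Cdh5 differed most, from 12.7 to 5.56 FPKM (-1.06), which is 43.7% of its E13.5 level. Cldn5 was at 16.5 and 18.03 FPKM (0.12). In the knockout the same step had a median of -0.07, with Cdh5 lower by at least 0.32 (8.52 to 5.55 FPKM, or -0.54) and Cldn5 higher (8.19 to 20.7 FPKM, or 1.24), beside 21.5% of 13977 genes lower and 21.7% higher. The knockout step also depends on scaling, since with TPM the median was -0.25 and 4 members were lower by at least 0.32, while the all-gene median moved from -0.03 to -0.20 and 39.1% of genes were lower and 15.51% higher. These steps share their E13.5 and E15.5 groups with the comparisons of genotype above, and so do not add to them.

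From E15.5 telencephalon to P7 whole brain, 5 genes were higher by at least 0.32 in wild type and 4 in knockout, and 0 were lower by as much in either. Age and tissue cannot be told apart in this step. Of all genes, 38.9% were lower and 33.6% higher in wild type (14909 genes), and 38.9% were lower and 34.1% higher in knockout (14853 genes). With TPM the all-gene median of the knockout step moved from -0.08 to 0.05. Cldn5 differed most on the log2(FPKM + 1) scale, by 0.83 in wild type (18.03 to 32.8 FPKM) and by 0.75 in knockout (20.7 to 35.6 FPKM), while by the ratio of FPKM in wild type Tek was at 184% and Cldn5 at 182% of E15.5. Tek, Eng and Esam were also higher in both, by 0.65, 0.44 and 0.41 in wild type and by 0.43, 0.59 and 0.66 in knockout. Cdh5 was higher in wild type by 0.35 and in knockout by 0.06. The share of Cldn5 in the sum of the 10 was 20.1%, 29.2% and 38.9% at the 3 successive ages in wild type, and 14.7%, 33.0% and 41.2% in knockout.

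Other endothelial genes were measured to see whether the 10 stood for the wider class. Of all genes, 3.89% were lower and 4.12% higher by at least 0.32 in Fendrr lung, and 3.71% and 5.14% in Peril brain. At E13.5 these shares were 12.4% and 10.5%, at E15.5 0.827% and 0.666%, and at P7 9.05% and 10.2%. They stand beside the counts of every list below. Of 28 further pan-endothelial genes in the lung table, all had at least 1 FPKM, 23 were lower in the Fendrr knockout, 7 by at least 0.32, and 1 was higher by as much, with a median of -0.21. Cd93, a surface protein of endothelium, was at 40.0 and 29.5 FPKM (-0.43) and Rasip1, a regulator of vessel lumen formation, at 18.4 and 13.98 FPKM (-0.38). Esm1, a marker of the tip cells of growing vessels, was higher in knockout, at 0.857 and 2.53 FPKM (0.93), and so was Gja5, a gap junction gene of arteries, at 8.50 and 10.6 FPKM (0.29). In Peril brain 21 of 23 such genes were lower, 5 by at least 0.32 and 1 higher, with a median of -0.16. Ecscr was at 6.81 and 4.42 FPKM (-0.53) and Ramp2, part of the adrenomedullin receptor, at 24.3 and 16.7 FPKM (-0.52). Plvap, a protein of leaky, fenestrated vessels, was at 2.33 and 3.31 FPKM (0.37). In E13.5 telencephalon 24 of 25 were lower, 14 by at least 0.32 and 0 higher, with a median of -0.40, led by Clec14a at 2.38 and 1.03 FPKM (-0.73). The E15.5 and P7 medians were -0.01 (21 genes) and -0.03 (23 genes), with 0 and 1 lower by at least 0.32.

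Endothelial transcription factors other than Sox17 had medians nearer 0 than the 10 genes in the 3 comparisons where the 10 were mostly lower. In the Fendrr lung 17 of 22 were lower, 1 by at least 0.32 (beside 3.89% of all genes), with a median of -0.12. The lowest were Gata2 at 4.29 and 3.23 FPKM (-0.32) and Hhex at 9.19 and 7.26 FPKM (-0.30). In Peril brain 19 of 23 were lower, 1 by at least 0.32 (beside 3.71% of all genes), with a median of -0.15. That 1 was Lef1, a mediator of Wnt signalling, at 5.42 and 3.93 FPKM. At E13.5 in the linc-Brn1b strain 16 of 20 were lower, 6 by at least 0.32 and 1 higher, with a median of -0.15. Sox18, the close relative of Sox17, was at 3.74 and 2.23 FPKM (-0.55) there, and Mef2c, which neurons also express, at 15.2 and 20.8 FPKM (0.42). The E15.5 and P7 medians were 0.00 (18 genes) and -0.07 (23 genes).

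Ligands and co-receptors of these pathways showed no shared direction in lung, where 15 of 29 were lower, 2 by at least 0.32 and 0 higher. One of those 2 was Acvrl1, the ALK1 receptor that acts with endoglin, at 28.6 FPKM in the wild-type and 19.5 FPKM in the knockout group (-0.53), while Eng itself was level. The lung values of Vegfb, a ligand of FLT1, were 17.3 and 21.0 FPKM (0.26) and those of Angpt2, a ligand of TEK, 3.86 and 4.89 FPKM (0.28). In Peril brain 21 of 28 were lower, 2 by at least 0.32 and 1 higher, and Angpt1, the activating ligand of TEK, was the higher one at 3.67 and 5.12 FPKM (0.39). At E13.5, 18 of 27 were lower, 4 by at least 0.32 and 2 higher, beside 12.4% of all genes lower and 10.5% higher. The apelin receptor gene Aplnr was at 7.17 and 4.39 FPKM (-0.60) there. Vegfa was at 25.1 and 21.7 FPKM at E15.5 (-0.20) and at 18.7 and 23.6 FPKM at P7 (0.319, just short of the threshold). At P7, 13 of 28 were lower, 4 by at least 0.32, and 0 were higher by as much, beside 9.05% of all genes lower and 10.2% higher.

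Genes of the blood-brain barrier, other than Cldn5, were described in the brain groups. In Peril brain 10 of 19 were lower and 0 passed 0.32 in either direction, with a median of -0.02, against -0.26 for the 10 endothelial genes. These barrier genes summed to 659 FPKM in Peril brain labelled wild type, where the 10 endothelial genes summed to 110.3 FPKM. The part of other cells in their levels was not tested. In E13.5 telencephalon 13 of 17 were lower, 5 by at least 0.32 and 1 higher, with a median of -0.13. Itm2a was at 26.2 and 10.8 FPKM (-1.21) and the glucose transporter Slc2a1 at 44.4 and 28.4 FPKM (-0.63). At E15.5, where 6 of 16 were lower and the median was 0.02, the amino acid transporter Slc38a5 was at 5.52 and 7.21 FPKM (0.33). At P7, 9 of 19 were lower, with 1 lower and 4 higher by at least 0.32, among them the thyroid hormone carrier Slco1c1 at 16.9 and 23.7 FPKM (0.47). Lymphatic genes, of which 5, 5, 5, 3 and 4 were measured in lung, Peril brain, E13.5, E15.5 and P7, had medians of 0.11, -0.05, -0.28, 0.00 and -0.19. In brain that list includes Prox1 and Reln, which neurons also express.

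**Figure D5:**
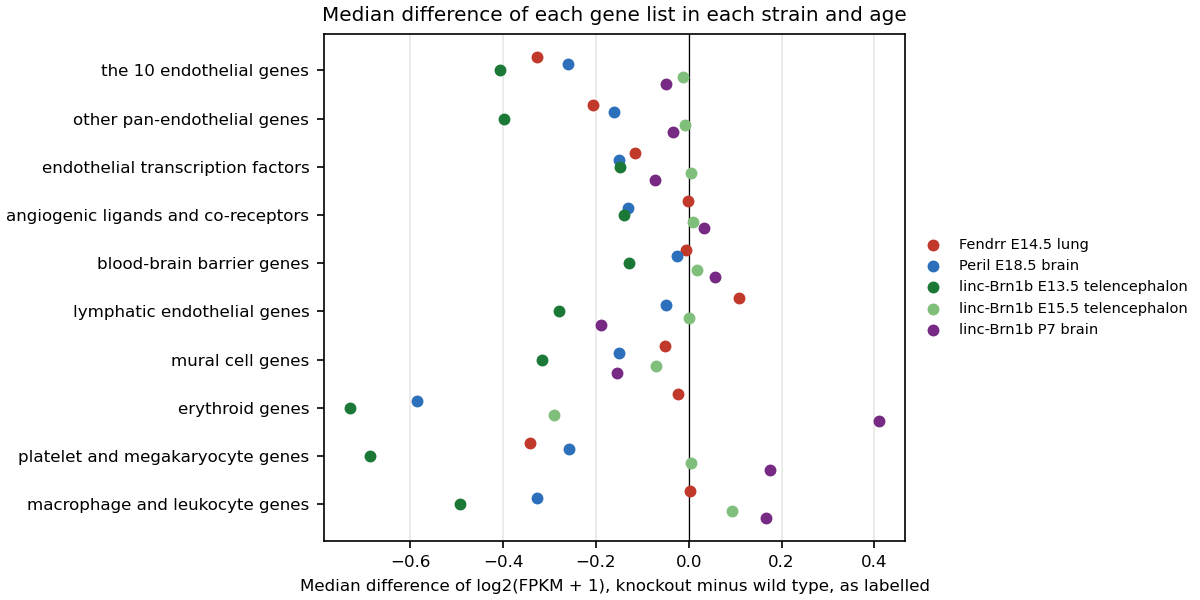
Median difference of log2(FPKM + 1), labelled knockout minus wild type, over the members of each gene list with at least 1 FPKM in either group (points, coloured by strain and age), with the 10 endothelial genes in the top row. In lung the 10 genes (-0.33) and the other pan-endothelial genes (-0.21) lie below 0 while mural, lymphatic and macrophage lists lie near or above 0, and at E13.5 all lists shown lie below 0.

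Genes of other cells of the vessel wall and of blood were lower together with the endothelial genes in some comparisons. Mural cells, the pericytes and smooth muscle around vessels, were represented by 11, 10, 10, 7 and 10 genes in lung, Peril brain, E13.5, E15.5 and P7. In lung 6 of the 11 were lower and the median was -0.05, with the smooth muscle myosin gene Myh11 at 28.4 and 17.4 FPKM (-0.68) and Anpep at 3.14 and 4.85 FPKM (0.50). In Peril brain 9 of 10 were lower, with the pericyte gene Rgs5 at 26.6 and 14.97 FPKM (-0.79), and at E13.5 all 10 were lower, with Vtn at 12.95 and 5.78 FPKM (-1.04). Erythroid genes, which come from blood in the vessels, were lower in 5 of 8 in lung, 3 of 3 in Peril brain, 6 of 7 at E13.5, 5 of 5 at E15.5 and 1 of 3 at P7. They summed to 3683 and 2471 FPKM in wild-type and knockout lung, 225 and 144 FPKM in Peril brain, 1440 and 692 FPKM at E13.5, 228 and 187 FPKM at E15.5 and 101.5 and 115 FPKM at P7. In lung 3 of these genes were lower and 1 higher by at least 0.32, with a median of -0.02. Hba-a2 made up 1816 and 969 FPKM of the lung sums, while Hbb-y was at 605 and 734 FPKM and Hba-x at 78.8 and 108 FPKM. Platelet genes were lower in 5 of 6 in lung, 3 by at least 0.32, with a median of -0.34, and in 1 of 2, 1 of 2, 0 of 1 and 1 of 3 in Peril brain, E13.5, E15.5 and P7. In lung they summed to 30.0 and 28.2 FPKM, of which Pf4 made up 15.55 and 18.47 FPKM. The other sums were 20.7 and 17.0 FPKM in Peril brain, 11.5 and 7.11 FPKM at E13.5, 6.94 and 6.97 FPKM at E15.5 and 15.98 and 17.1 FPKM at P7. Macrophage and leukocyte genes were lower in 7 of 14 in lung, 12 of 12 in Peril brain, 11 of 12 at E13.5, 0 of 11 at E15.5 and 5 of 13 at P7, and their sums were 158 and 157 FPKM, 97.5 and 75.7 FPKM, 39.7 and 24.1 FPKM, 36.0 and 39.4 FPKM, and 118 and 128 FPKM in the same order. The part of these cells in the endothelial differences was not tested.

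Markers of neighbouring tissue also differed between some groups. All 12 cardiac muscle markers were higher by at least 0.32 in Fendrr knockout lung, and they summed to 386 FPKM in the wild-type and 1178 FPKM in the knockout group. Their part in the lung differences was not tested, and of the 8 lung epithelium markers 4 were lower, 2 by at least 0.32, with a median of -0.07. Those 2 were Sftpb, at 25.4 and 18.8 FPKM (-0.42), and Cdh1, at 44.2 and 34.4 FPKM (-0.35), while Sftpc made up 819 and 871 FPKM of sums of 1311 and 1331 FPKM. Foxf1a, the coding gene next to Fendrr and a marker of lung mesenchyme, was at 36.6 and 24.8 FPKM (-0.54). The 8 lung mesenchyme markers summed to 1163 and 1350 FPKM, of which Col3a1 made up 527 and 626 FPKM and Col1a1 375 and 461 FPKM. Of these 8 markers 2 were lower, 1 by at least 0.32, and 0 were higher by as much. Choroid plexus markers, from the tissue that makes cerebrospinal fluid, summed to 846 and 584 FPKM in Peril brain, 172 and 216 FPKM at E13.5, 248 and 5.92 FPKM at E15.5 and 462 and 316 FPKM at P7. The collagen genes Col1a1 and Col3a1, made by connective tissue cells, were at 11.9 and 6.81 FPKM and at 38.5 and 19.3 FPKM at E13.5, where the endothelial genes differed most. At P7, where the endothelial median was -0.05, Col1a1 was at 9.70 and 6.96 FPKM (-0.43) and Col3a1 at 16.04 and 8.95 FPKM (-0.78). The part of these tissues in the endothelial differences was not tested. Telencephalon markers summed to 822 and 937 FPKM at E13.5, of which Neurod6 made up 153 and 219 FPKM, and to 341 and 365 FPKM in Peril brain. At E13.5, 3 of the 10 telencephalon markers were lower. Of 7 neuron markers 1 was lower at E13.5, and they summed to 1353 and 1253 FPKM, of which Tubb3 made up 869 and 678 FPKM. In wild-type lung telencephalon markers summed to 2.72 FPKM.

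How alike the 10 genes were over the 6 linc-Brn1b groups was described by Pearson correlation of log2(FPKM + 1), with the 6 groups normalized in 1 table. Each gene was compared with the mean of the other 9. Eng (0.90), Tie1 (0.87) and Tek (0.78) followed the others most closely, then Esam (0.67) and Flt1 (0.60). Sox17 (0.41), Pecam1 (0.38) and Cdh5 (0.37) followed less, and Cldn5 (0.14) and Kdr (0.08) least. In wild type Kdr went from 12.8 FPKM at E13.5 to 7.45 FPKM at P7 while Cldn5 went from 16.5 to 32.8 FPKM. Among 11462 genes with at least 5 FPKM in any of these groups, the 8 most like the mean profile of the 10 were Lgals1 (0.98), 9530068E07Rik (0.98), Grhpr (0.98), Ldha (0.98), 2310011J03Rik (0.96), Cryz (0.96), Gcsh (0.95) and Cyba (0.95). None of these 8 is in the endothelial lists used here, and the likeness is a description over 6 points. Lgals1, which encodes galectin-1, was at 31.9 and 7.92 FPKM in wild-type and knockout telencephalon at E13.5, at 8.53 and 8.98 FPKM at E15.5 and at 21.7 and 16.1 FPKM at P7.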

How the data were processed

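The authors aligned paired-end reads of mRNA-seq libraries, made from total RNA with the TruSeq kit, to mm9 with TopHat2, and Cufflinks 2.0.2 is listed in the submitters' processing notes. Cuffdiff2 with default options then gave the deposited FPKM values, 1 per gene and group, in 3 tables normalized separately. The tables also hold the authors' fold changes, test statistics, p-values, q-values and calls for each comparison, which were not used. There were 0 columns of values per library, so that depth, replicate spread, intervals and tests could not be given. Knockout and wild type, or consecutive ages, were compared within a table as differences of log2(FPKM + 1). A gene was counted when it differed by at least 0.32 on that scale, and all genes with at least 1 FPKM in either group served as background, with Python 3.11.15 and pandas 2.3.3. The 10 genes and the 17 lists beside them were chosen with earlier results of these data known. Named genes are the 10 members and, from the other lists, genes among the 2 lowest and the 2 highest differences of a comparison. The targeted loci and the 8 genes most like the mean profile were named as well. Counting was tested on simulated data. Alternatives were a pseudocount of 0.1, TPM, centring on the all-gene median, no filter on low values, a minimum of 5 FPKM, a fold of 1.5, each member left out and shares without Cldn5.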

Additional observations from a re-analysis of the deposited data

How the results depend on the processing

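No paired analysis was possible because the tables hold no values per library, and for the same reason leaving out a replicate was not run. Among the settings tried for the medians and counts of the 10 genes, 20 changed a value, given below. The other 160 moved the value by less than 0.1 (log2) or kept the count within 1.5 times. None reversed a median, where a reversal was counted only for medians of at least 0.32 in size. With a pseudocount of 0.1, 3 genes in Peril brain and 1 at P7 in the linc-Brn1b strain were lower by at least 0.32. With TPM, 2 were lower in Peril brain, 3 at E13.5 and 4 in knockout telencephalon between E13.5 and E15.5. The TPM medians were -0.29 at E13.5, -0.25 for that knockout step, 0.46 for wild type and 0.37 for knockout from E15.5 to P7. With genes of at least 5 FPKM, the medians of the 2 knockout steps were -0.19 and 0.33. With a fold of 1.5, the lower genes were 0 in Peril brain, 1 in Fendrr lung, 1 at E13.5, 3 in the wild-type and 0 in the knockout step to E15.5, and the higher genes in the wild-type step to P7 were 2. Leaving out 1 gene gave 0 lower in Peril brain (without Flt1) and 0 lower or higher in the knockout step to E15.5 (without Cdh5 or Cldn5), since each of those counts was 1 gene. The cause was not tested. With 1 value per group, depth limits cannot be stated.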

Other observations

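Between the deposited groups of the linc-Brn1b strain, the wild-type E13.5 telencephalon held the highest Pecam1 (9.66 FPKM), Cdh5 (12.7 FPKM), Kdr (12.8 FPKM), Tie1 (6.65 FPKM) and Sox17 (1.24 FPKM) of the 6 groups. The P7 knockout held the highest Cldn5 (35.6 FPKM), Esam (9.99 FPKM), Flt1 (4.89 FPKM) and Eng (7.33 FPKM). Cldn5 had its lowest value of all 10 groups, 8.19 FPKM, in the E13.5 knockout, where Cdh5 was at 8.52 FPKM, and no other brain group had Cldn5 below Cdh5.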
